A study of Homo sapiens with 9 samples.

Results

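BCR, ABL1 and the proteins that pass the signal of their fusion kinase onward are described here across TIF-Seq2 libraries of K562 cells, through 10 genes chosen by name: BCR, ABL1, CRKL, GRB2, GAB2, SHC1, SOS1, CBL, STAT5A and STAT5B. They stand among 22384 genes with at least 1 read pair in their window. TIF-Seq2 is designed to copy whole RNAs from the cap to the poly(A) tail into cDNA and sequences both ends of each copy. A read pair is thus meant to give the transcription start site (TSS) and the poly(A) site (PAS) of 1 molecule. A pair was counted for a gene when both of its ends lay on the gene's strand within 1 kb of the gene body in Gencode v44 (hg38). The 10 genes took 6786 read pairs in all.

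K562 is an established erythroleukaemia line from a patient with chronic myeloid leukaemia, and all libraries come from that single line, which carries the BCR-ABL1 fusion in control and treated cells alike. The treated cells received 1 μM imatinib, an inhibitor of the ABL1 kinase, for 24 h, and the control cells received the vehicle DMSO for 24 h. Each condition had 2 libraries, which the study's methods call biological replicates and which the labels number 1 and 2. Values of single libraries are given below in the order DMSO replicate 1, DMSO replicate 2, imatinib replicate 1 and imatinib replicate 2. The libraries held 3695520, 5135829, 4263670 and 2263121 read pairs, and 97.5 to 98.5% of them fell into the window of a gene.

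The fusion joins the 5′ part of BCR on chromosome 22 to the kinase and C-terminal part of ABL1 on chromosome 9 and keeps the kinase active. GRB2, SHC1 and CRKL are adaptors without enzyme activity whose SH2 domains bind phosphorylated tyrosines, and GAB2 is a docking protein that is itself phosphorylated and gathers further proteins. SOS1 loads RAS with GTP, CBL tags active kinases with ubiquitin, and STAT5A and STAT5B are transcription factors that enter the nucleus once phosphorylated. In K562 the fusion RNA carries exon 14 of BCR joined to exon 2 of ABL1. The deposited pairs have both ends on the same chromosome, so a molecule from the BCR promoter to the ABL1 poly(A) site cannot be among them.

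Some of the 3′ ends described below are shown first, as the last 30 nt of the RNA in DNA letters. The bases were read from hg38 and end at the most used base of the site. Capitals mark the AATAAA or ATTAAA hexamer that the cleavage complex recognizes.
ABL1 annotated end, chr9:130887644-130887673, plus strand: attttttaAATAAAtcagtgtttacattag
BCR end in intron 1, chr22:23204391-23204420, plus strand: ttgtgattctaAATAAAattaagtcatgtt
CRKL main end, chr22:20953569-20953598, plus strand: ttaacagtATTAAAtgacttatattcttag
GRB2 proximal end, chr17:75320013-75320042, minus strand: gctgacgccaatAATAAAaaacaagaaacc
GRB2 distal end, chr17:75318077-75318106, minus strand: tgtgaatAATAAAtacacaatgaattcttc
GAB2 main end, chr11:78215302-78215331, minus strand: gagcaggacAATAAAgtccactagaaatgc
SHC1 distal end, chr1:154962299-154962328, minus strand: aaactcttcATTAAAgtccgtatttcttct
CBL main end, chr11:119308117-119308146, plus strand: atttttaAATAAAgtttcttttgttgtagc
STAT5A main end, chr17:42311911-42311940, plus strand: cagtgttttggAATAAAatatttttttcat
STAT5B annotated end, chr17:42199178-42199207, minus strand: tatgttacAATAAAgccttcctctgaaggg

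All 10 of these windows hold the signal, which begins 18 to 23 nt before the end. The sites were picked from a larger set, so this count describes the choice. Ends with neither hexamer that are not shown include CRKL 20953746 (225 pairs), STAT5B 42274776 (103), SHC1 154963330 (83) and STAT5A 42310713 (50). Over all genes, 28773 PAS clusters had at least 4 read pairs in a gene's window, and 64.5% of them held AATAAA or ATTAAA within their last 30 nt. Those clusters had passed a filter on normalized counts that the members' positions below had not, so the shares are not directly comparable. Of the members' 43 end positions with at least 4 read pairs and fewer than 7 A in the 10 nt downstream, 21 held a hexamer, against 3 of 29 positions with 7 or more A. Ends of the second kind are where the oligo(dT) primer can start within the RNA instead of at its tail. A pair of them, from SOS1 and STAT5B, show what such a position looks like, with the 30 nt up to the end on chr2:39123370-39123399 and chr17:42287212-42287241, both on the minus strand.
SOS1 end next to 10 A: caacaaaatgagactctgtctcagaaaaag
STAT5B end next to 10 A: ctcccagtttcattcttttaacttcagagg

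The main 5′ ends are shown as 20 nt of DNA before the start followed by the first 10 nt of the RNA, with the bases at −1 and +1 in capitals. RNA polymerase II prefers a pyrimidine followed by a purine there, and 44.7% of the plus-strand and 44.5% of the minus-strand pairs in all libraries began at such a step.
GRB2, chr17:75405658-75405687, minus strand: gggagcggaagccaggaggTAttgctgctt
CRKL, chr22:20917444-20917473, plus strand: ccgcttctcccgcgtccgcCAttttgttgc
SHC1 upstream, chr1:154974366-154974395, minus strand: ggttagtgaggccggaagtGAgtgtaataa
SHC1 downstream, chr1:154970738-154970767, minus strand: agcctgttctcttctcagcCAgagaagagg
STAT5A downstream, chr17:42289298-42289327, plus strand: ggcctggccgcggtccaggGAtaggtaggc
STAT5B, chr17:42276366-42276395, minus strand: agtcggcggccggagccgtCAccccgggcg
The steps at GRB2, CRKL, the downstream start of SHC1 and STAT5B follow the pyrimidine-purine rule, and those at the upstream start of SHC1 and at STAT5A do not.

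BCR had few pairs in these tables. Its body on chr22:23179704-23318037 (plus strand), with the 1 kb around it, held 35 pairs in all, namely 8, 18, 7 and 2 in the 4 libraries. Scaled to 1000000 pairs of each library after normalization between libraries (CPM), these were 2.10, 3.15, 1.41 and 0.81, both imatinib libraries below both DMSO libraries. The gene did not pass the filter on low counts, so it entered no test. Without that filter its log2 fold change was −1.25 with an edgeR adjusted p of 0.292.

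None of the BCR pairs reached the end of the gene, since all 35 ended in introns of the reference (MANE) transcript. The most used end, 9 pairs in intron 1, lies at the signal shown above, with 3 and 6 pairs from the DMSO libraries and none from the imatinib libraries, where a count of 0 allows up to 3 pairs. The next, 8 pairs in intron 4, has AATAAA too, but is followed by 9 A in 10 nt and lies in FBXW4P1, a processed pseudogene on the same strand. In all, 21 of the 35 ends, or 60%, had 7 or more A downstream. Relative to exon 14 (chr22:23290339-23290413), 34 pairs started and ended before it, 0 spanned it and 1 started after it. Pairs with exactly 1 end in the BCR window numbered 0, and 4 of the 35 pairs began within 200 bp of an annotated BCR start, all in DMSO libraries.

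ABL1, in contrast, was read at its 3′ end. Its body on chr9:130713043-130887675 (plus strand), with the same margin, held 449 pairs, namely 66, 151, 183 and 49. As CPM these were 17.4, 26.4, 36.9 and 19.8, and the conditions overlapped, since imatinib replicate 2 lay between the DMSO libraries. The mean was 21.9 ± 6.42 CPM (SD, n = 2) in DMSO and 28.3 ± 12 (SD, n = 2) in imatinib. The log2 fold change was 0.38 (SE 0.38), with an edgeR adjusted p of 0.529.

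The ABL1 molecules fell into classes by where they began. None of the 449 pairs began within 200 bp of an annotated ABL1 start, a count of 0 that allows up to 3 pairs. In or after exon 2 (chr9:130854064-130854237), the first exon that the fusion keeps, 312 pairs began, and all 312 ended at the annotated poly(A) site at position 130887673. Of the gene's pairs, 260, or 57.9%, began within the last exon, which is 3707 nt long. By library, the pairs that began in or after exon 2 were 38, 103, 139 and 32, or 10.0, 18.0, 28 and 13.0 CPM, with overlapping conditions. A molecule of the fusion that is read from a 5′ end inside ABL1 and a molecule of ABL1 itself cannot be told apart in these pairs.

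Another 136 ABL1 pairs started and ended upstream of exon 2, and 1 pair ran from there past the start of the exon. They were 27, 48, 44 and 17 by library, or 7.10, 8.41, 8.86 and 6.88 CPM, with the imatinib libraries on either side of the DMSO libraries. The leading end among them, at position 130783283 upstream of the start of the reference transcript, took 36 pairs (4, 18, 9 and 5), has ATTAAA 28 nt before it and 2 A downstream, and lies in no annotated exon of the gene. Some other listed ends in the same stretch, such as 130776069 with 13 pairs and 130764953 with 11, are followed by 8 and 10 A. Ends at 130786513 with 8 pairs, 130783227 with 5 and 130784221 with 5 are followed by 4, 3 and 2 A. Pairs with exactly 1 end in the ABL1 window numbered 0.

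**Figure D1:**
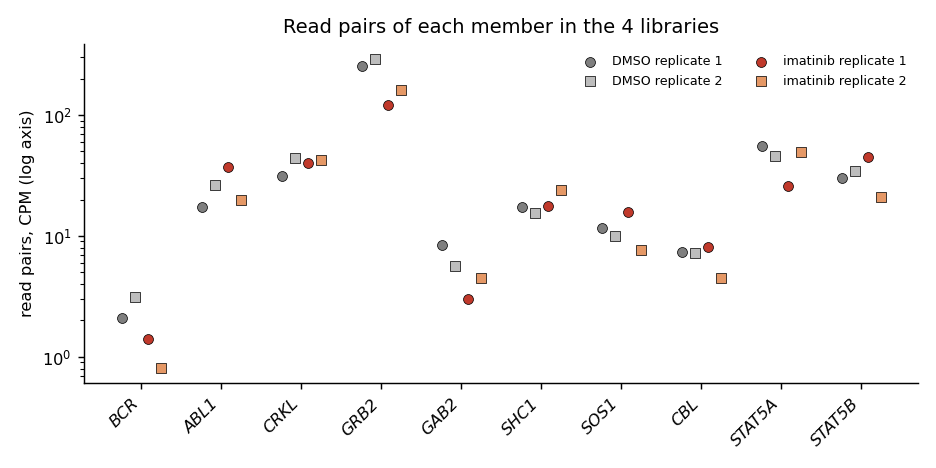
Read pairs of each of the 10 genes in CPM on a log axis, with 1 point per library (grey, DMSO; red and orange, imatinib; circles, replicate 1; squares, replicate 2). GRB2, GAB2 and BCR show both imatinib libraries below both DMSO libraries, SHC1 shows both above, and heights are not compared between genes because the share of full-length molecules differs among them.

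The question put to the signalling genes was whether exposure to imatinib moved their RNA. Of the 10 genes, 9 could be tested, and GRB2, the adaptor that couples phosphorylated BCR-ABL1 to SOS1, was the one that passed, lower in imatinib. Over all genes 1800 of 12135 passed, or 14.8%, with 746 of them lower, or 6.15%. The log2 fold changes of the 9 tested genes had a median of 0.06 against 0.03 over all genes, with 5 above 0 and 4 below. The conditions did not overlap for 3 of the 9 (GRB2, GAB2 and SHC1), against 60% of all genes tested, and both imatinib libraries were lower for GRB2 and GAB2, against 29.1% of all genes. DESeq2 also called 1 of the 10 genes, GRB2, and no other member reached an unadjusted p under 0.05 in edgeR. These p-values set the difference between conditions against the spread between the libraries of this experiment.

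GRB2 (chr17:75318076-75405709, minus strand) had 966, 1646, 604 and 394 pairs. These were 254, 288, 122 and 160 CPM, both imatinib libraries well below both DMSO libraries. The mean fell from 271 ± 24.1 CPM (SD, n = 2) in DMSO to 141 ± 26.8 (SD, n = 2) in imatinib. On the log2 scale the change was −0.95 (SE 0.26), a ratio of 0.517, with an edgeR adjusted p of 0.043. The call stood close to the threshold. It was lost without DMSO replicate 1 (adjusted p = 0.15), without DMSO replicate 2 (0.302) and without imatinib replicate 1 (0.0576), while without imatinib replicate 2 the adjusted p was 0.0012. A replicate block (adjusted p = 0.125) and a limit of 1.5 on the log2 fold change also ended the call. In these bulk libraries, fewer cells with the RNA and less RNA per cell cannot be told apart.

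GRB2 was also the gene read most completely. Of its 3610 pairs, 93.4% began within 200 bp of an annotated start, and 3238 began around position 75405667, 11 nt inside the annotated start of the reference transcript. Both main poly(A) sites lie in the last exon beyond the stop codon, the proximal 358 nt and the distal 2294 nt past the last coding base of the reference transcript, 1936 nt apart. The pairs do not show the splicing between the ends. Together they took 92.7% of the pairs.

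The poly(A) sites were then read apart. The proximal site had 750, 1292, 414 and 212 pairs, or 197, 226, 83.4 and 85.8 CPM, both imatinib values far under both DMSO values. The distal site had 158, 246, 134 and 140 pairs, or 41.6, 43.1, 27.0 and 56.7 CPM, the imatinib libraries lying on either side of the DMSO libraries. Of the pairs at both sites, the distal site took 17.4% (95% Wilson interval 15.1 to 20.0%) and 16.0% (14.2 to 17.9%) in DMSO, and 24.5% (21.0 to 28.2%) and 39.8% (34.8 to 45%) in imatinib. The intervals, which cover counting error within a library alone, do not overlap between conditions.

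**Figure D2:**
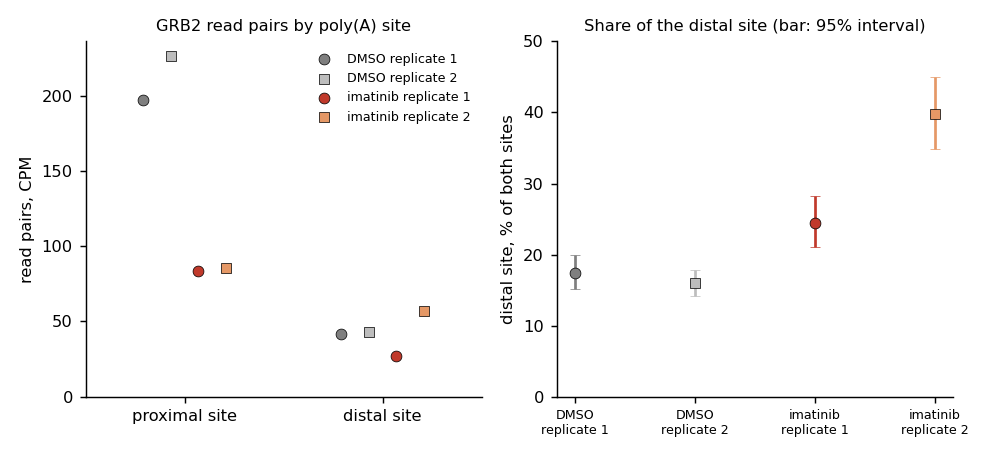
Left, GRB2 read pairs in CPM at the proximal and the distal poly(A) site, 1 point per library. Right, the distal site as a percentage of the pairs at both sites, with 95% Wilson intervals for counting error: it was 17.4% and 16.0% in DMSO and 24.5% and 39.8% in imatinib.

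A transcript isoform (TIF) was taken as a TSS cluster joined to a PAS cluster by at least 4 pairs, which gave 34441 TIFs. The 10 genes held 14 of them, 6 of GRB2, 4 of CRKL and 4 of SHC1, and 6 could be tested. Over all tested TIFs 1779 of 16020 were called, or 11.1%, and 757 were lower, or 4.73%. The called TIF of a member ran from 75405667 to the proximal site of GRB2. It had 631, 1080, 329 and 184 pairs, with a log2 fold change of −1.17 (SE 0.27) and an edgeR adjusted p of 0.0248, and the call was lost without either DMSO library. The TIF from the same start to the distal site had 123, 197, 101 and 114 pairs, with a log2 fold change of 0.12 (SE 0.40) and an adjusted p of 0.885. Another TIF, from 75405639 to the proximal site, had 11, 15, 5 and 0 pairs and an adjusted p of 0.163.

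Whether the forms changed differently was tested by the share of each TIF in its gene, with edgeR's test of differential usage. Of 14232 TIFs 242 were called, or 1.7%, and of the 6 TIFs of members 0 were, with 1 at an unadjusted p under 0.05. That was the distal GRB2 form, with a log2 change of 0.69 relative to the gene, an unadjusted p of 0.0309 and an adjusted p of 0.439. With all pairs summed by PAS cluster whatever their start, 13 of 11342 shares were called, or 0.115%, and 0 of 10 shares of members, with 2 at an unadjusted p under 0.05. The distal site of GRB2 had a log2 share change of 0.68, an unadjusted p of 0.023 and an adjusted p of 0.753. An unequal change of the GRB2 forms was thus not called over the whole set, and the share also differed between the imatinib libraries.

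**Figure D3:**
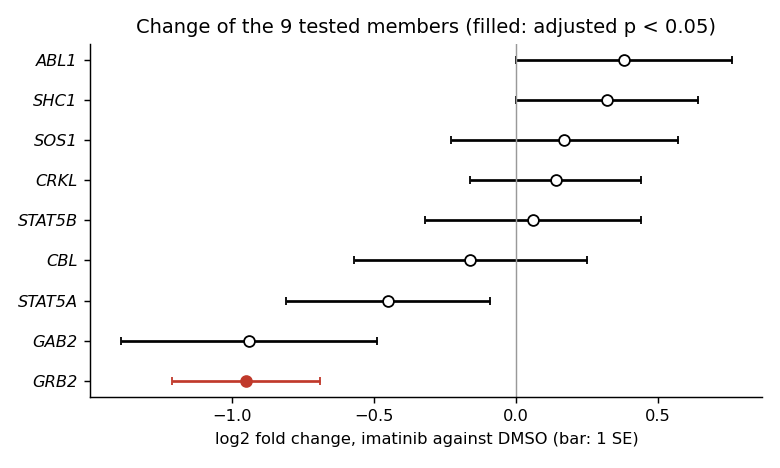
Log2 fold change of imatinib against DMSO for the 9 tested genes, with bars of 1 SE from edgeR's quasi-likelihood fit. GRB2, filled, is at −0.95 and is the gene with an adjusted p under the threshold, GAB2 lies at −0.94 with a wider bar, and the bars of SOS1, CRKL, STAT5B and CBL cross 0.

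The other adaptors gave no call. GAB2, a docking protein that GRB2 carries to the fusion kinase and that recruits PI3-kinase and SHP2, lies on the minus strand of chr11:78215293-78418348 and had 32, 32, 15 and 11 pairs. As CPM these were 8.42, 5.60, 3.02 and 4.45, with both imatinib libraries below both DMSO libraries. The log2 fold change of −0.94 was near that of GRB2, but its SE of 0.45 was larger and the edgeR adjusted p was 0.189. Its pairs lay mostly at the 3′ end, since 63 of 90, or 70%, ended at the site shown above and 64, or 71.1%, began within the last exon. Whether 5′ ends within the last exon are starts of transcription was not tested. The 6 pairs that began at an annotated GAB2 start were 2, 4, 0 and 0 by library.

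CRKL, whose encoded adaptor is a prominent substrate of the fusion kinase, lies on the plus strand of chr22:20917407-20953747 and had 118, 250, 199 and 105 pairs. These were 31.0, 43.8, 40.1 and 42.5 CPM, and the imatinib libraries lay within the DMSO range. Its log2 fold change was 0.14 (SE 0.30), with an edgeR adjusted p of 0.794. CRKL molecules used a pair of ends 148 nt apart.

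The CRKL end at 20953598, with ATTAAA, took 409 of 672 pairs (66, 169, 117 and 57). The annotated end at 20953746, with neither hexamer in its last 30 nt, took 225 (48, 64, 69 and 44). The annotated end was at 12.6 and 11.2 CPM in DMSO and 13.9 and 17.8 in imatinib, but the share of neither end was called (edgeR adjusted p = 1 for both). The start at 20917464, 57 nt inside the annotated start, took 285 pairs, and 369 pairs, or 54.9%, began within the last exon, which makes up 4037 of the 5342 nt of the reference mRNA.

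SHC1, an adaptor that GRB2 binds once its tyrosines are phosphorylated, lies on the minus strand of chr1:154962298-154974395 and had 66, 89, 88 and 59 pairs. These were 17.4, 15.6, 17.7 and 23.9 CPM, with both imatinib values above both DMSO values by little. Its log2 fold change was 0.32 (SE 0.32), with an edgeR adjusted p of 0.527. Annotated starts began 262 of its 302 pairs, or 86.8%.

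SHC1 has upstream and downstream annotated starts that begin transcripts for proteins of different length. Starts at 154974336-154974395, which include those of transcripts coding for 473 and 474 residues, took 37, 55, 61 and 44 pairs. The starts at 154970741-154970747, which include those of transcripts coding for 583 and 584 residues and of another coding for 354, took 18, 22, 14 and 11. The downstream starts were thus 32.7%, 28.6%, 18.7% and 20.0% of the pairs at annotated starts, lower in both imatinib libraries, with Wilson intervals that overlap between conditions (21.8 to 45.9% in DMSO replicate 1 and 11.6 to 32.4% in imatinib replicate 2). The share test over groups of annotated starts gave a log2 change of −0.47 with an edgeR adjusted p of 0.725.

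At its 3′ end SHC1 used the distal site at 154962299 in 184 pairs (35, 56, 59 and 34) and a proximal site at 154963330 in 83 (19, 25, 18 and 21). The proximal site has neither hexamer in its last 30 nt and lies 476 nt past the last coding base. The share of neither site was called (edgeR adjusted p = 1 for both). Each start was joined to each site. From the start around 154974375, 98 pairs ran to the distal and 53 to the proximal site, and from the start around 154970747, 29 and 15 did. A further 515 pairs began inside the SHC1 window and ended outside it, and they were not counted for it. PYGO2, on the same strand, starts at 154963853 within the last exon of SHC1, and 12 of the SHC1 pairs lay in its window too.

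SOS1, the exchange factor that GRB2 brings to the membrane, lies on the minus strand of chr2:38962206-39124345 and had 44, 57, 78 and 19 pairs, or 11.6, 9.98, 15.7 and 7.69 CPM, with the imatinib libraries on either side of the DMSO libraries. Imatinib against DMSO gave a log2 fold change of 0.17 (SE 0.40), with an edgeR adjusted p of 0.805. Of its 198 pairs 104, or 52.5%, ended in introns of the reference transcript and 89, or 44.9%, had 7 or more A downstream. In all, 1 pair ran from an annotated start into the last exon of the reference mRNA, which is 8906 nt long. The annotated end at 38981554 took 17 pairs, and an end at 38984698, 1129 nt past the last coding base, took 25. The A-rich position shown above, upstream of the reference start, also took 25 pairs, of which 22 began at an annotated start. A further 12 pairs ended at 38992280 in intron 20 of the reference transcript, 1 nt from an annotated end that a shorter protein-coding SOS1 transcript and the lncRNA SOS1-IT1 on the same strand share.

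CBL, the ubiquitin ligase, lies on the plus strand of chr11:119206298-119313926 and had 28, 41, 40 and 11 pairs, or 7.37, 7.18, 8.06 and 4.45 CPM, the imatinib libraries again on either side. Imatinib against DMSO gave a log2 fold change of −0.16 (SE 0.41), with an edgeR adjusted p of 0.827. Of its 120 pairs, 94, or 78.3%, ended at the site shown above, and 99, or 82.5%, began within the last exon, which holds 8655 of the 11168 nt of the mRNA. The 12 pairs at annotated CBL starts were 1, 8, 3 and 0, and 0 of them reached that site.

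STAT5A (chr17:42287547-42311943, plus strand) had 212, 260, 128 and 121 pairs. These were 55.8, 45.5, 25.8 and 49.0 CPM, and imatinib replicate 2 lay within the DMSO range while imatinib replicate 1 lay below it. Its log2 fold change was −0.45 (SE 0.36), with an edgeR adjusted p of 0.417. Without imatinib replicate 2 it was −1.01 with an adjusted p of 0.0188, in a fit that called 30.5% of all genes. The end at 42311940 took 628 of 721 pairs, or 87.1%, and an end at 42310713, 47 nt past the last coding base and without either hexamer, took 50 (20, 18, 5 and 7). The share of neither was called (adjusted p = 1 for both).

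The annotated starts of STAT5A form an upstream and a downstream group. Pairs within 200 bp of the annotated start at 42289213, nearly all around 42289318, numbered 73, 79, 27 and 28, or 19.2, 13.8, 5.44 and 11.3 CPM, both imatinib values below both DMSO values. Pairs at the upstream annotated starts, 42288076-42288543, numbered 36, 42, 37 and 33, or 9.47, 7.36, 7.45 and 13.4 CPM, with overlapping conditions. The downstream start took 67.0% (Wilson interval 57.7 to 75.1%) and 65.3% (56.5 to 73.2%) of them in DMSO, against 42.2% (30.9 to 54.4%) and 45.9% (34.0 to 58.3%) in imatinib. The values do not overlap between conditions, while the interval of imatinib replicate 2 overlaps those of both DMSO libraries. The share test called 95 of 1293 groups of annotated starts, or 7.35%, and 0 of 6 of members, with 0 at an unadjusted p under 0.05. Over clusters of start positions 416 of 11788 shares were called, or 3.53%, and 0 of 4 of members, with 0 at an unadjusted p under 0.05. The downstream group of STAT5A had a log2 share change of −0.41 and an edgeR adjusted p of 0.702, and the upstream group 0.50 and 0.551.

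STAT5B (chr17:42199176-42288633, minus strand) lies head to head with STAT5A. It had 115, 197, 225 and 52 pairs, or 30.3, 34.5, 45.3 and 21.1 CPM, with the imatinib libraries on either side of the DMSO libraries. The log2 fold change was 0.06 (SE 0.38), with an edgeR adjusted p of 0.937. The sum mixes several kinds of molecule.

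The annotated STAT5B end at 42199178 took 14, 50, 110 and 10 pairs, or 3.68, 8.76, 22.2 and 4.05 CPM, and imatinib replicate 1 stood above the other 3 libraries. An end at 42274776 in intron 1, in no exon of STAT5B, took 39, 41, 16 and 7 pairs, or 10.3, 7.18, 3.22 and 2.83 CPM, both imatinib values below both DMSO values. The lncRNA ENSG00000278829 on the same strand covers this position, and 138 of the 589 STAT5B pairs lay in its window as well. Of the 103 pairs at this end, 41, 15 and 15 began around 42275631, 42275595 and 42275542 in intron 1. The remaining 32 also began away from the annotated starts. The share of this end thus does not show a choice of poly(A) site by molecules from an annotated STAT5B start. The PAS share of that end had a log2 change of −1.24, an unadjusted p of 0.0292 and an edgeR adjusted p of 0.831, which was 0.0416 without imatinib replicate 2. With pairs in more than 1 gene's window left out, the STAT5B log2 fold change was 0.50 with an adjusted p of 0.446. A further 72 pairs (10, 27, 34 and 1) ended at the A-rich position shown above.

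Of the STAT5B starts, the one at 42276375, 16 nt inside the annotated start of the reference transcript, took 85 pairs. More pairs, 157 or 26.7%, began in introns away from annotated starts than the 109, or 18.5%, at annotated starts. A start at 42275631 in intron 1 took 51 pairs. It lies near 42275571, where the lncRNA ENSG00000278829 on the same strand begins. Of the 589 STAT5B pairs, 138 also lay in the window of that lncRNA, and RNA of the lncRNA and of STAT5B was not told apart there. Pairs at any annotated start numbered 16, 28, 52 and 13, or 4.21, 4.90, 10.5 and 5.26 CPM. Both imatinib values lay above both DMSO values, that of imatinib replicate 2 by little. These pairs include 0, 0, 7 and 1 at the annotated start 42288331 and 0, 0, 4 and 0 at 42288633, both upstream of the reference start. With only pairs at annotated starts counted for every gene, the log2 fold change was 0.91 with an edgeR adjusted p of 0.219, in a fit that called 14.3% of genes.

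**Figure D4:**
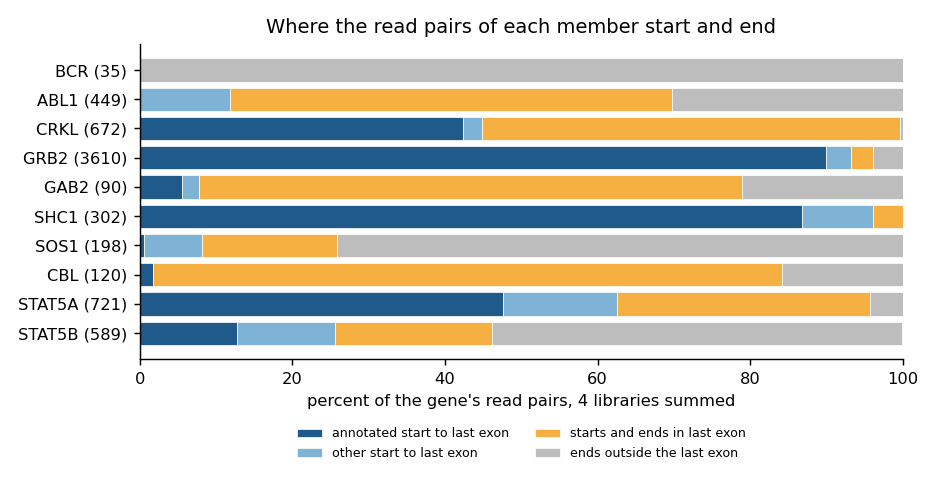
Percentage of each gene's read pairs by where they start and end, with the 4 libraries summed and the number of pairs in parentheses. GRB2 (89.9%) and SHC1 (86.8%) consist mostly of molecules from an annotated start to the last exon, CBL (82.5%), GAB2 (71.1%), ABL1 (57.9%) and CRKL (54.9%) mostly of molecules within the last exon, and all BCR pairs end outside the last exon.

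Across the 10 genes the share of pairs at an annotated start tended to fall with the length of the reference mRNA, with exceptions. The share was 93.4% at GRB2 (3273 nt), 86.8% at SHC1 (3481 nt) and 49.2% at STAT5A (3770 nt). The longer mRNAs had 42.6% at CRKL (5342 nt), 27.3% at SOS1 (8906 nt), 18.5% at STAT5B (5079 nt) and 10.0% at CBL (11168 nt). The rest had 11.4% at BCR (6783 nt), 6.67% at GAB2 (6110 nt) and 0% at ABL1 (5578 nt), each below SOS1 although each mRNA is shorter. Spearman's rho over the 10 genes was −0.721, and over all 9888 protein-coding genes with at least 30 pairs it was −0.555, where all points share the same 4 libraries. GRB2 and SHC1 lay above the median of genes of like length (76.3% and 74.2%), and the other 8 lay below theirs, ABL1 by the most (0% against 56.4%). Molecules from the BCR promoter to the ABL1 poly(A) site are absent from the pairs. The shares of BCR and ABL1 are therefore not directly comparable with those of other genes, and the part of this absence in them was not tested. The 589 pairs behind the STAT5B share include 138 that also lay in the window of the lncRNA ENSG00000278829. For the genes read mostly without an annotated start, the counts are mostly not of molecules known to be whole.

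**Figure D5:**
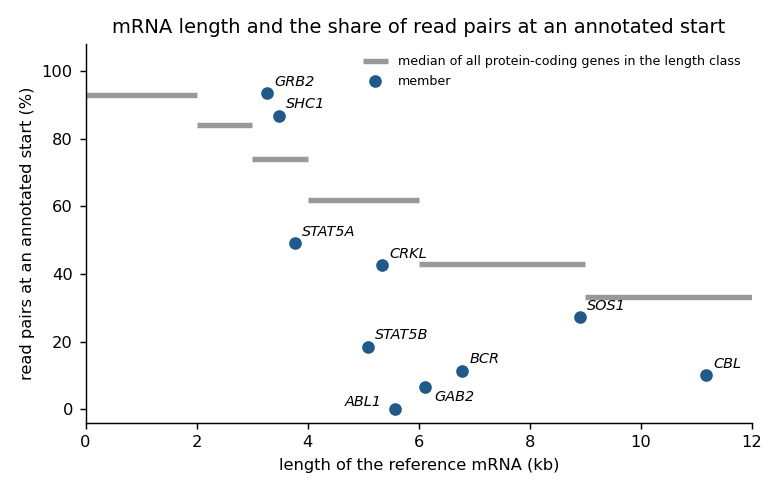
Share of each gene's read pairs that begin within 200 bp of an annotated start, against the length of its reference mRNA in kb. Points are the 10 genes and grey lines are medians of all protein-coding genes in each length class, from 92.9% under 2 kb to 33.3% from 9 kb on.

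The wider pathway was read from a list of 54 genes that act beside or below the fusion kinase, none of them among the 10. Of these, 44 could be tested and 6 were called, or 13.6%, close to the 14.8% of all genes, with 5 higher and 1 lower (over all genes 8.69% were higher and 6.15% lower). The median log2 fold change of the 44 was 0.12 against 0.03 over all genes. Of the other kinases 4 of the 6 tested were called, a count that includes FES, whose pairs are described below.

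GAB1, the close relative of GAB2, was higher in imatinib, with 36, 38, 220 and 86 pairs, a log2 fold change of 2.31 (SE 0.34) and an edgeR adjusted p of 0.00476. PIK3R1, the regulatory subunit of PI3-kinase, was also higher, with 7, 12, 55 and 22 pairs, a log2 fold change of 2.33 (SE 0.42) and an adjusted p of 0.00923. Both calls held without any single library. With only pairs at annotated starts counted, PIK3R1 and FYN were called and no other gene of the list was, GAB1, FES and LYN being too low to test there and JAK2 having an edgeR adjusted p of 0.122.

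Among the kinases, FYN had 33, 45, 120 and 80 pairs, a log2 fold change of 1.76 (SE 0.33) and an edgeR adjusted p of 0.0107. JAK2, which signals from cytokine receptors to STAT5, had 31, 27, 89 and 63 pairs, with 1.76 (SE 0.39) and 0.0194. Both were higher in both imatinib libraries than in either DMSO library. LYN, a SRC-family kinase, was lower, with 186, 197, 43 and 48 pairs, a log2 fold change of −1.62 (SE 0.42) and an adjusted p of 0.0336. Without DMSO replicate 2 the edgeR adjusted p was 0.0563 for FYN and 0.144 for JAK2, and without DMSO replicate 1 it was 0.0737 for LYN, which was also not called with A-rich ends left out.

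The call of FES, another tyrosine kinase, rested on its neighbour. Its window held 38, 66, 184 and 69 pairs, with a log2 fold change of 1.59 (SE 0.32) and an edgeR adjusted p of 0.0137. FURIN, on the same strand, ends just upstream of FES, and 7, 15, 9 and 5 of these pairs lay in no other gene's window. With those alone FES was too low to test, so the pairs do not give a change of FES itself, and the list then had 5 calls.

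No gene was called among the 10 of the RAS to ERK chain, the 6 tested phosphatases, ubiquitin ligases and GTPase activating proteins or the 4 other STAT genes. In edgeR 1, 2 and 1 of them had an unadjusted p under 0.05, and DESeq2 called 0, 0 and 1, the last being STAT3. Of the adaptors and exchange factors 1 of 11 passed (GAB1), and of the PI3K to AKT chain 1 of 7 (PIK3R1). A further 10 listed genes were too low to test.

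The line was checked by marker lists. All 12 erythroid markers were detected in every library, and their summed level was 6023 to 7271 CPM in DMSO and 19510 to 19529 in imatinib. Of 5 monocyte and granulocyte markers 3 were detected, with CD14 and ELANE at 0 and sums of 98.4 to 118 CPM in DMSO and 31.6 to 101 in imatinib. Of 5 lymphoid markers 3 were detected, with CD3E and MS4A1 at 0 and sums of 72.7 to 81.6 and 14.6 to 17.3 CPM. All 5 fibroblast and epithelial markers were detected, with sums of 1050 to 1077 and 681 to 790 CPM. The erythroid, lymphoid, and fibroblast and epithelial sums did not overlap between conditions, as GRB2 did not, and their part in its change was not tested.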

How the data were processed

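The authors deposited one table of read-pair counts per TIF-Seq2 library, raw and without normalization. Per the study's methods and the submitters' processing notes they trimmed reads with cutadapt 1.16, aligned both ends to hg38 with STAR 2.5.3a, kept pairs on a single chromosome and removed duplicates by UMI, so a count is a molecule and fusion molecules are absent. Priming within the RNA was not removed from these counts. Strand is recorded in each table. Long-read models of targeted amplicons, none of a member, were not used, and 3′ T-fill samples were not analysed here.

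Here pairs were summed per gene (Gencode v44, both ends within 1 kb of the body, same strand; a pair in several windows counted for each). Imatinib was compared with DMSO by edgeR 4.0.16 (quasi-likelihood, robust, TMM, filterByExpr; Benjamini-Hochberg over all genes; called at an adjusted p under 0.05) in R 4.3.3, and shares by its differential usage test. The SE was taken as the size of the log2 fold change over √F. DESeq2 1.42.0 was an alternative. CPM use TMM library sizes. TIFs joined TSS and PAS clusters (power law of exponent 1.25 and 1000000 tags, at least 1 normalized count in 2 libraries, joined within 10 bp) by at least 4 pairs. Only pairs 300 bp to 2 Mb long entered, and only those where the 10 nt downstream held fewer than 7 A. Wilson intervals (95%) and the floor of 3 pairs for a count of 0 cover counting error only. Intronic and last-exon places refer to the MANE transcript, and annotated starts to protein-coding transcripts. All 10 members were named, with their largest and called TIFs, and of the pathway list the called genes. The members and lists were chosen with earlier results of these data known. The groups of annotated starts, the PAS and TSS cluster shares and the ends and starts described were chosen after their values were seen. With 2 libraries against 2 an exact permutation test cannot go below p = 0.333, so none is given. Scripts were tested on simulated data.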

Additional observations from a re-analysis of the deposited data

How the results depend on the processing

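The number of genes called, 1800, was 2732 without the filter on low counts, 1148 with a replicate block, 1180 with a log2 fold change also beyond 1.5, and 820 to 3986 with 1 library left out (1115 without DMSO replicate 1, 820 without DMSO replicate 2 and 3986 without imatinib replicate 2). For TIFs, 1779, the same settings gave 3106, 1106, 1575 and 713 to 3597 (942, 713 and 3597 without the same libraries). The count of members called, 1 (GRB2), was 0 with a replicate block, where its adjusted p was 0.125, 0 beyond 1.5 and 0 to 2 with 1 library left out, the second being STAT5A without imatinib replicate 2. The count of member TIFs called, 1, was 0 with the replicate block, 0 beyond 1.5 and 0 to 1 with 1 library left out, being 0 without either DMSO library. The test of TIF shares called 0 of members in each of its 10 alternatives, while the PAS shares called the intron 1 end of STAT5B without imatinib replicate 2 (adjusted p = 0.0416) and not without any other library. Of the pathway list 6 genes were called, 11 without the filter, 3 to 12 with 1 library left out (3 without DMSO replicate 2, 10 without imatinib replicate 1 and 12 without imatinib replicate 2), 6 with the replicate block and 2 with only pairs at annotated starts. The labels do not say that equal replicate numbers pair libraries, and deviations of equal numbers correlated at −0.236. A crossed replicate block, chosen after seeing the data, called 3723 genes, 3594 TIFs, 10 pathway genes, 1 member and 1 member TIF.

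Some log2 fold changes of uncalled members changed sign. With 1 library left out, ABL1 ranged from −0.14 to 0.71, CRKL from −0.11 to 0.40, SOS1 from −0.46 to 0.52, CBL from −0.69 to 0.11 and STAT5B from −0.61 to 0.45. SOS1 was −0.03 with A-rich ends left out. CBL was 0.01 with a window of 0 kb. STAT5B was −0.01 by DESeq2, −0.03 without the filter, −0.03 with A-rich ends left out and −0.05 with the replicate block. In all, 115 of 132 alternatives of the members' fold changes kept direction and side of the threshold, and the cause of the others was not tested. The analysis with pairs at annotated starts and the shares of sites in place of TIFs were added after seeing the data. BCR, GAB2 and CBL had 35 to 120 pairs, which limits what could be called.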
